A study of Mus musculus with 18 samples.

Results

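The genes described here copy DNA and carry cells through S phase, and their transcripts were counted in sorted beta cells of mouse islets. The 42 genes were listed by name and fall into 6 roles: licensing of origins and the replicative helicase, polymerases with the sliding clamp and lagging strand enzymes, nucleotide synthesis, chromatin assembly, repair and fork checkpoint, and the E2F factors with cyclin E. The rule names no measured value, but the genes were chosen with earlier results of these data known. All 42 were in the count table of 53090 gene IDs, and all 42 passed the filter on low counts that left 19284 genes for testing.

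There were 18 libraries in 4 groups, with 3 libraries of HFD-fed LIRKO mice, 4 of chow-fed LIRKO mice, 5 of HFD-fed Ctrl mice and 6 of chow-fed Ctrl mice. LIRKO mice lack the insulin receptor in the liver, so the beta cells themselves were not the target of the deletion. HFD is read here as a high-fat diet. What drives the deletion, the control genotype beyond "Ctrl", and the age, sex and length of feeding are not stated in the sources used here. In all 4 groups the islets were kept overnight in culture before dispersal, and cells were then sorted by light scatter and their own fluorescence, with no beta cell marker in the gate. No label ties a library to an animal, so p-values reflect library to library spread only, some of which may be technical.

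In a dividing cell, origins are licensed in G1 when Cdc6 and Cdt1 load rings of Mcm2 to Mcm7, and Cdc45 and the GINS complex turn these rings into an active helicase in S phase. Primase and polymerase alpha start each strand, the Rfc complex loads the Pcna clamp, and polymerases delta and epsilon extend the strands. Many of these genes are switched on together at the end of G1 by E2F transcription factors, some of which, such as E2f8, act as repressors that limit the wave. Adult beta cells divide rarely, and insulin resistance is known to raise their proliferation in mice.

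Because E2F control is the textbook link between these genes, their promoters were searched for E2F letters. RefSeq promoters on GRCm38.p6 were at hand for 36 of the 42 genes, and the 250 bases before each start were read on both strands. The full E2F letters TTTCCCGC or TTTGGCGC stood in 7 of the 36 (19.4%), against 1.51% of 27025 genes with a promoter. A shorter form, either TTCCCGC as part of the full letters, or likewise TTGGCGC, or else its variant TTGGCGG, stood in 16 (44.4%), against 8.53%. The CCAAT box, the letters bound by NF-Y, stood in 21 (58.3%), against 37.5%. The letters TTTGAA or TTCGAA, which occur in the CHR elements of mitotic genes, stood in 6 (16.7%), against 19.6%. CCAAT read from the other strand (ATTGG) can share bases with the short E2F form, as in ATTGGCGG. A match in these letters is a description of the sequence and not a bound site.

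To show these letters in place, the 120 bases just before the start are given for 5 members described in the chow comparison, chosen after their values were seen, each on the strand of its gene, which is the minus strand for all 5. Capitals mark E2F letters and CCAAT boxes in either orientation. Rad51ap1 (chr6:126939588-126939707) and E2f8 (chr7:48881597-48881716) carry a short E2F form joined to a CCAAT box. Brca1 (chr11:101551956-101552075) and Mcm10 (chr2:5012792-5012911) carry CCAAT boxes without these E2F letters, and Mcm6 (chr1:128359706-128359825) carries the full E2F letters at 2 places along with CCAAT boxes.
Rad51ap1: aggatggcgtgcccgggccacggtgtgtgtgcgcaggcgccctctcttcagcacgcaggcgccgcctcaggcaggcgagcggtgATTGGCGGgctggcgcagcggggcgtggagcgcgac
E2f8: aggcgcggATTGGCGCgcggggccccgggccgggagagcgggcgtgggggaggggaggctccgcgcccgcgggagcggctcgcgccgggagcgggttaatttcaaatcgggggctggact
Brca1: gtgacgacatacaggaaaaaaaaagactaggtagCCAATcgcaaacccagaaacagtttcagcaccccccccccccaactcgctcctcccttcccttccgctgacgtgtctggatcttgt
Mcm10: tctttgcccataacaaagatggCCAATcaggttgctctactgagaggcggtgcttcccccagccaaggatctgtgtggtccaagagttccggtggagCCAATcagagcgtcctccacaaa
Mcm6: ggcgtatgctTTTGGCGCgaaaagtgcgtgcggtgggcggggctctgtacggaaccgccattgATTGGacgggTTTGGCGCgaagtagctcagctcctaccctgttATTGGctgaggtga

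The libraries held 19490235 to 51714775 counted reads. Beta cell markers (8 genes, Ins1, Ins2 and Iapp among them) were all detected in every library and summed to between 99274 and 233536 CPM (counts per 1000000 reads of the TMM-scaled library). Transcripts of other cell types were present too. The 10 endothelial markers summed to 269.9 to 345 CPM in LIRKO HFD, 19.7 to 194 CPM in LIRKO chow, 172 to 349 CPM in Ctrl HFD and 42.1 to 220.1 CPM in Ctrl chow, with no marker at 0. The 10 macrophage markers summed to 314 to 381 CPM in LIRKO HFD, 116 to 234 CPM in LIRKO chow, 186 to 459 CPM in Ctrl HFD and 155 to 281 CPM in Ctrl chow. LIRKO chow libraries 1 and 2 were near-identical to each other, as were libraries 3 and 4. The median absolute deviation of their log2 ratios was 0.0941 and 0.109, and no other pair within a group came under 0.179. Whether the libraries of such a pair came from separate animals is not stated, so the 4 LIRKO chow libraries may not be independent replicates. Values of n count libraries. Ctrl HFD libraries 1 and 2 stood apart from the other 3 of their group, with the lowest total counts and with Malat1, a nuclear RNA, at 1.37% and 1.06% of counts. In bulk RNA, a change in the number of cells that express a gene and a change in its level per cell cannot be told apart.

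**Figure D1:**
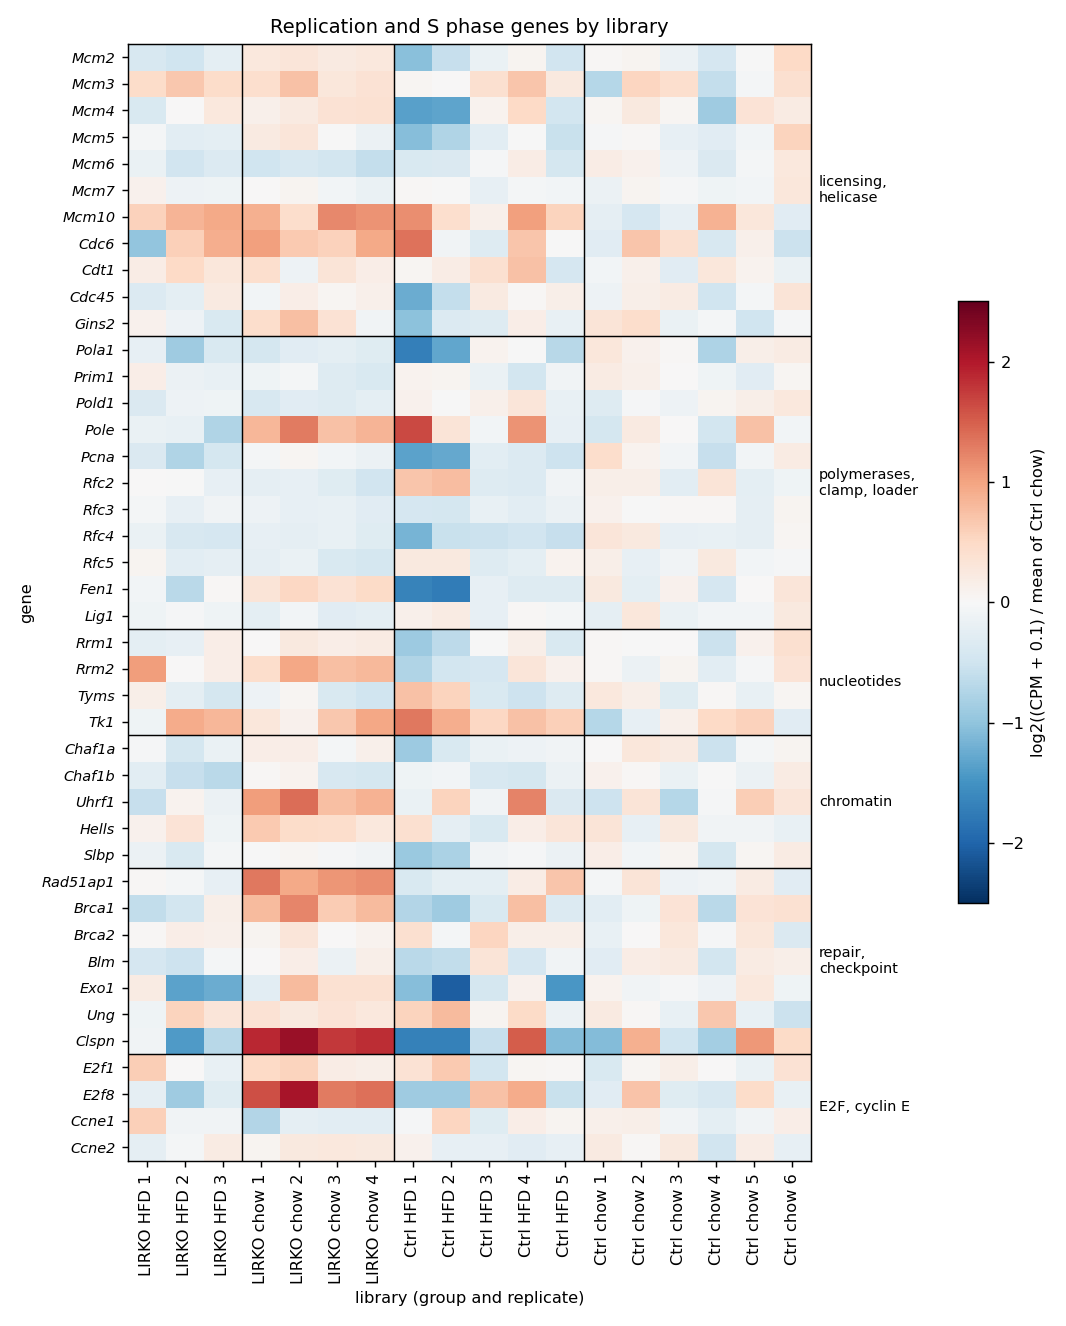
Level of each of the 42 genes in each of the 18 libraries, as log2 of its CPM plus 0.1, over the gene's mean in the Ctrl chow libraries on the same scale. Rows are grouped by role and columns by group. Several low-level genes, among them Clspn, E2f8, Rad51ap1, Uhrf1 and Brca1, stand high in the 4 LIRKO chow libraries.

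The 42 genes together took 341 to 377 CPM in LIRKO HFD, 378 to 419.7 CPM in LIRKO chow, 342 to 388 CPM in Ctrl HFD and 349 to 447 CPM in Ctrl chow. These sums overlapped between the groups on chow. Per kilobase of annotated exon, Pcna was the highest member in Ctrl chow at 19.9 CPM per kilobase. Next came the clamp loader subunit Rfc2 at 6.76, the factor E2f1 at 6.25 and the primase subunit Prim1 at 5.31 CPM per kilobase. The lowest were the repressor E2f8 at 0.0174, the exonuclease Exo1 at 0.0378, the checkpoint adaptor Clspn at 0.0393 and Pole, the catalytic subunit of polymerase epsilon, at 0.0504 CPM per kilobase.

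The helicase subunits, which assemble into rings with 1 copy of each, differed in transcript level. Per kilobase in Ctrl chow, Mcm4, Mcm7, Mcm6 and Mcm2 stood at 4.5, 4.12, 3.98 and 2.75 CPM, while Mcm5 and Mcm3 stood at 0.979 and 0.714 CPM. Mcm7 averaged 17.6 ± 1.67 CPM (SD, n = 3) in LIRKO HFD, 17.7 ± 1.23 (n = 4) in LIRKO chow, 17.5 ± 1.04 (n = 5) in Ctrl HFD and 18.2 ± 2.16 (n = 6) in Ctrl chow. Its means differed by less than the spread within each group.

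**Figure D2:**
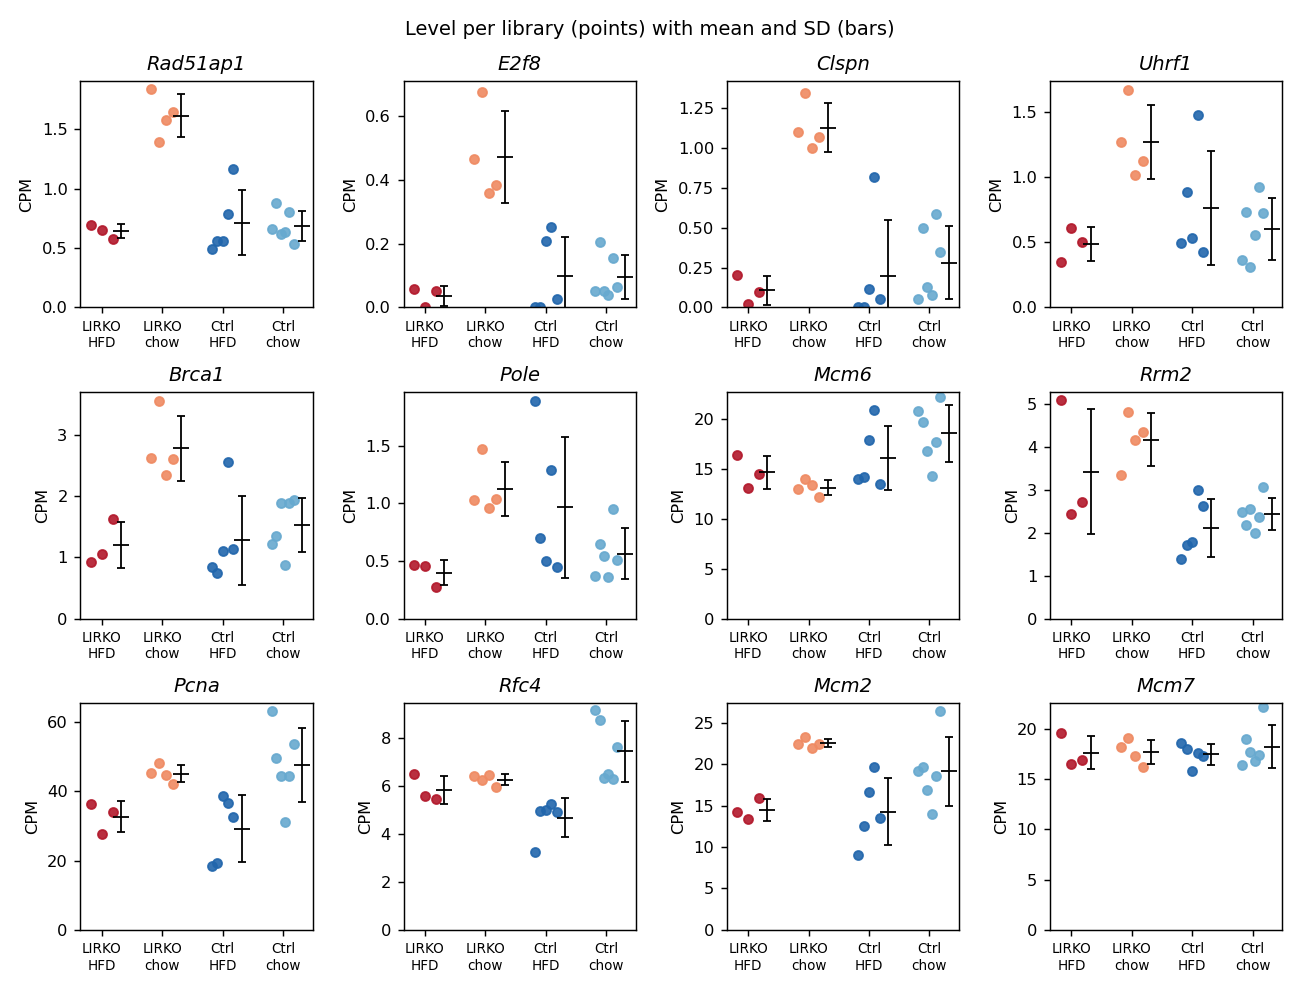
CPM of 12 members in every library, with 1 panel per gene and its own axis from 0; points are libraries, and bars are the group mean and SD, cut at 0. The 4 LIRKO chow libraries lie above all Ctrl chow libraries for Rad51ap1, E2f8, Clspn, Uhrf1, Brca1, Pole and Rrm2, and below them for Mcm6, while Mcm7 lies at the same level in all groups.

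The first comparison, LIRKO against Ctrl on chow, asks what the loss of the liver's insulin receptor does to these genes in beta cells. Rad51ap1, a factor of homologous recombination, rose 2.33-fold, and it was the only member to pass the test. Members with low levels, such as E2f8, Clspn, Uhrf1, Pole and Brca1, had higher values in LIRKO chow. The more abundant members ran both ways, with Mcm2 at 0.24 and E2f1 at 0.35, Rfc2 at -0.32 and Mcm6 at -0.50, and Pcna, Mcm7 and Slbp, which binds histone mRNA, between -0.08 and -0.04 on the log2 scale. Tests were edgeR quasi-likelihood tests with Benjamini-Hochberg adjustment over 19284 genes, of which 5.15% passed in either direction. Passing means an adjusted p under 0.05.

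Rad51ap1 held 1.84, 1.40, 1.58 and 1.65 CPM in the 4 LIRKO chow libraries, against a lowest, median and highest value of 0.538, 0.648 and 0.88 CPM in Ctrl chow. Every LIRKO chow library was above every Ctrl chow library. The log2 fold change was 1.22 (SE 0.25, edgeR adjusted p = 0.00661). It kept its direction in all 24 alternative settings, with values of 1.16 to 1.31, and fell short of the threshold with the near-identical LIRKO chow libraries summed in pairs (edgeR adjusted p = 0.0984).

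E2f8, an atypical E2F that represses E2F targets, had 19, 27, 18 and 14 reads in the LIRKO chow libraries, against at most 7 reads in a Ctrl chow library. In CPM these were 0.465, 0.673, 0.359 and 0.384 in LIRKO chow, against 0.0399, 0.058 and 0.205 as the lowest, median and highest in Ctrl chow. The groups did not overlap, at a depth of few reads. Its log2 difference of 2.27 (SE 0.66) missed the threshold (edgeR adjusted p = 0.0554), and E2f8 passed the low-count filter only through the 4 LIRKO chow libraries, so that among tested genes it had to differ. It passed in 7 of 24 alternative settings. Among these were DESeq2 (adjusted p = 0.02), leaving out both Ctrl HFD libraries 1 and 2 (edgeR adjusted p = 0.0133) and the chow groups alone (0.00786). The others left out Ctrl chow library 2 (0.0492) or Ctrl HFD library 1, 2 or 4 (0.0378, 0.0381 and 0.0411). With the near-identical LIRKO chow libraries summed in pairs, the edgeR adjusted p of E2f8 was 0.297.

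Mcm6, a subunit of the helicase ring, went the other way. It held 13.0, 14.0, 13.4 and 12.2 CPM in LIRKO chow, against 14.3, 18.7 and 22.2 CPM as the lowest, median and highest in Ctrl chow. All LIRKO chow libraries were below all Ctrl chow libraries, by a narrow margin at the nearest values. The log2 difference of -0.50 (SE 0.15) missed the threshold (edgeR adjusted p = 0.0566). It passed in 5 of 24 alternative settings: with DESeq2 (adjusted p = 0.0156), without both Ctrl HFD libraries 1 and 2 (edgeR adjusted p = 0.0413), with the chow groups alone in the fit (0.0263), and without Ctrl chow library 4 (0.0311) or Ctrl HFD library 4 (0.0339). With the LIRKO chow libraries summed in pairs, the edgeR adjusted p of Mcm6 was 0.409. The other 5 subunits of the ring had log2 differences of -0.04 to 0.39 with groups that overlapped.

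Mcm10, which helps to start unwinding at origins, held 1.84, 1.32, 2.30 and 2.17 CPM in LIRKO chow, against 0.674, 0.794 and 1.80 CPM in Ctrl chow. These groups overlapped, because Ctrl chow library 4 lay within the range of the LIRKO chow libraries. The log2 difference was 0.94 (SE 0.29, edgeR adjusted p = 0.0725). Mcm10 passed with DESeq2 (adjusted p = 0.017), without both Ctrl HFD libraries 1 and 2 (edgeR adjusted p = 0.0383) and without Ctrl chow library 4 (0.0166). Summing the LIRKO chow libraries in pairs gave an edgeR adjusted p of 0.352.

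Rrm2, the S phase subunit of ribonucleotide reductase, which makes deoxynucleotides, held 3.33, 4.81, 4.15 and 4.34 CPM in LIRKO chow, against 2.0, 2.42 and 3.07 CPM in Ctrl chow. The groups did not overlap. Its log2 difference was 0.77 (SE 0.24, edgeR adjusted p = 0.0768). It passed with DESeq2 (adjusted p = 0.0192), without both Ctrl HFD libraries 1 and 2 (edgeR adjusted p = 0.0271), with the chow groups alone (0.015) and without LIRKO HFD library 1 (0.0461). With the LIRKO chow libraries summed in pairs, the edgeR adjusted p of Rrm2 was 0.402. Its partner Rrm1, which is the more abundant subunit per kilobase, stood at 32.2 ± 2.17 CPM (SD, n = 4) in LIRKO chow and 29.3 ± 5.9 CPM (n = 6) in Ctrl chow, with a log2 difference of 0.14.

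Another 5 members lay apart in the same direction without passing. Uhrf1, which carries DNA methylation over to new strands, held 1.27, 1.67, 1.02 and 1.13 CPM in LIRKO chow, against 0.309, 0.643 and 0.925 CPM in Ctrl chow. Brca1, a tumour suppressor of homologous recombination, held 2.62, 3.54, 2.34 and 2.61 CPM, against 0.878, 1.61 and 1.93 CPM. Clspn, which relays the fork checkpoint to Chk1, held 1.10, 1.35, 0.998 and 1.07 CPM, against 0.0526, 0.239 and 0.586 CPM. In each of these 3 genes every LIRKO chow library was above every Ctrl chow library, with log2 differences of 1.08, 0.86 and 1.99 and edgeR adjusted p-values of 0.103, 0.136 and 0.157. Pole, the leading strand polymerase, held 1.03, 1.47, 0.958 and 1.04 CPM in LIRKO chow, against 0.359, 0.524 and 0.956 CPM in Ctrl chow, with nearest values that almost touched (log2 0.99, edgeR adjusted p = 0.154). With the chow groups alone in the fit, Brca1 and Clspn passed (edgeR adjusted p = 0.0465 and 0.0283), and Uhrf1 passed with DESeq2 (adjusted p = 0.0458). Clspn reached the filter's CPM in 4 LIRKO chow and 3 Ctrl chow libraries. The filter of the chow fit asks for 4 libraries, so Clspn entered it partly through the group where it was higher. Summing the LIRKO chow libraries in pairs gave edgeR adjusted p-values of 0.53 for Brca1, 0.537 for Clspn and 0.45 for Uhrf1. Fen1 held 2.67, 3.07, 2.74 and 2.96 CPM in LIRKO chow, against 1.56, 2.20 and 2.63 CPM in Ctrl chow, again with nearest values that almost touched (log2 0.41, SE 0.30, edgeR adjusted p = 0.496).

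Over the list, 1 of 42 members passed higher and 0 passed lower, beside 2.95% higher and 2.2% lower among all genes tested. Of the 42, 12 had an unadjusted p under 0.05, 9 higher and 3 lower, against 3621 of the 19284 genes. All LIRKO chow libraries were above all Ctrl chow libraries for 8 members (Rad51ap1, E2f8, Clspn, Uhrf1, Brca1, Pole, Rrm2 and Fen1), beside 6.46% of all genes, and below for 1 (Mcm6), beside 5.21%. E2f8 is among the 8, but it passed the low-count filter only in LIRKO chow, so its place there was set by that filter. The median log2 difference over the members was 0.16, beside -0.02 over all genes. By role, all 7 repair and checkpoint genes and 9 of 11 licensing and helicase genes had positive values, with medians of 0.45 and 0.22. For the polymerases, clamp and lagging strand genes 9 of 11 were negative, with a median of -0.22. In this comparison 1 of 5 duct markers tested was called higher. The 6 duct markers listed summed to 167 to 191 CPM in LIRKO chow and 58.1 to 109 CPM in Ctrl chow. Of other markers, 1 of 6 for alpha cells was called higher, and 1 of 10 for macrophages and 1 of 2 for PP cells lower. The 2 PP cell markers summed to 127 to 394 CPM in LIRKO chow and 261 to 1937 CPM in Ctrl chow. The part of these markers' cells in the members' values was not tested.

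The members with all LIRKO chow libraries above all Ctrl chow libraries were low ones. With a split at a mean of 3 CPM over all 18 libraries, chosen after the values were seen, all 14 members below it had positive log2 differences, 8 of them with all LIRKO chow libraries above, and their median was 0.85. Among the 28 members above the split 13 were positive, 0 had all LIRKO chow libraries above, 1 (Mcm6) had all below, and the median was -0.04. Over all 7337 genes below the same split, 56.3% were positive, 6.5% had all LIRKO chow libraries above, and the median was 0.10. Over all genes above the split, 41.9% were positive, 6.43% had all LIRKO chow libraries above, and the median was -0.06. E2f8 is among the 14 and the 8, and it passed the low-count filter only in LIRKO chow. No test was made of this split.

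**Figure D3:**
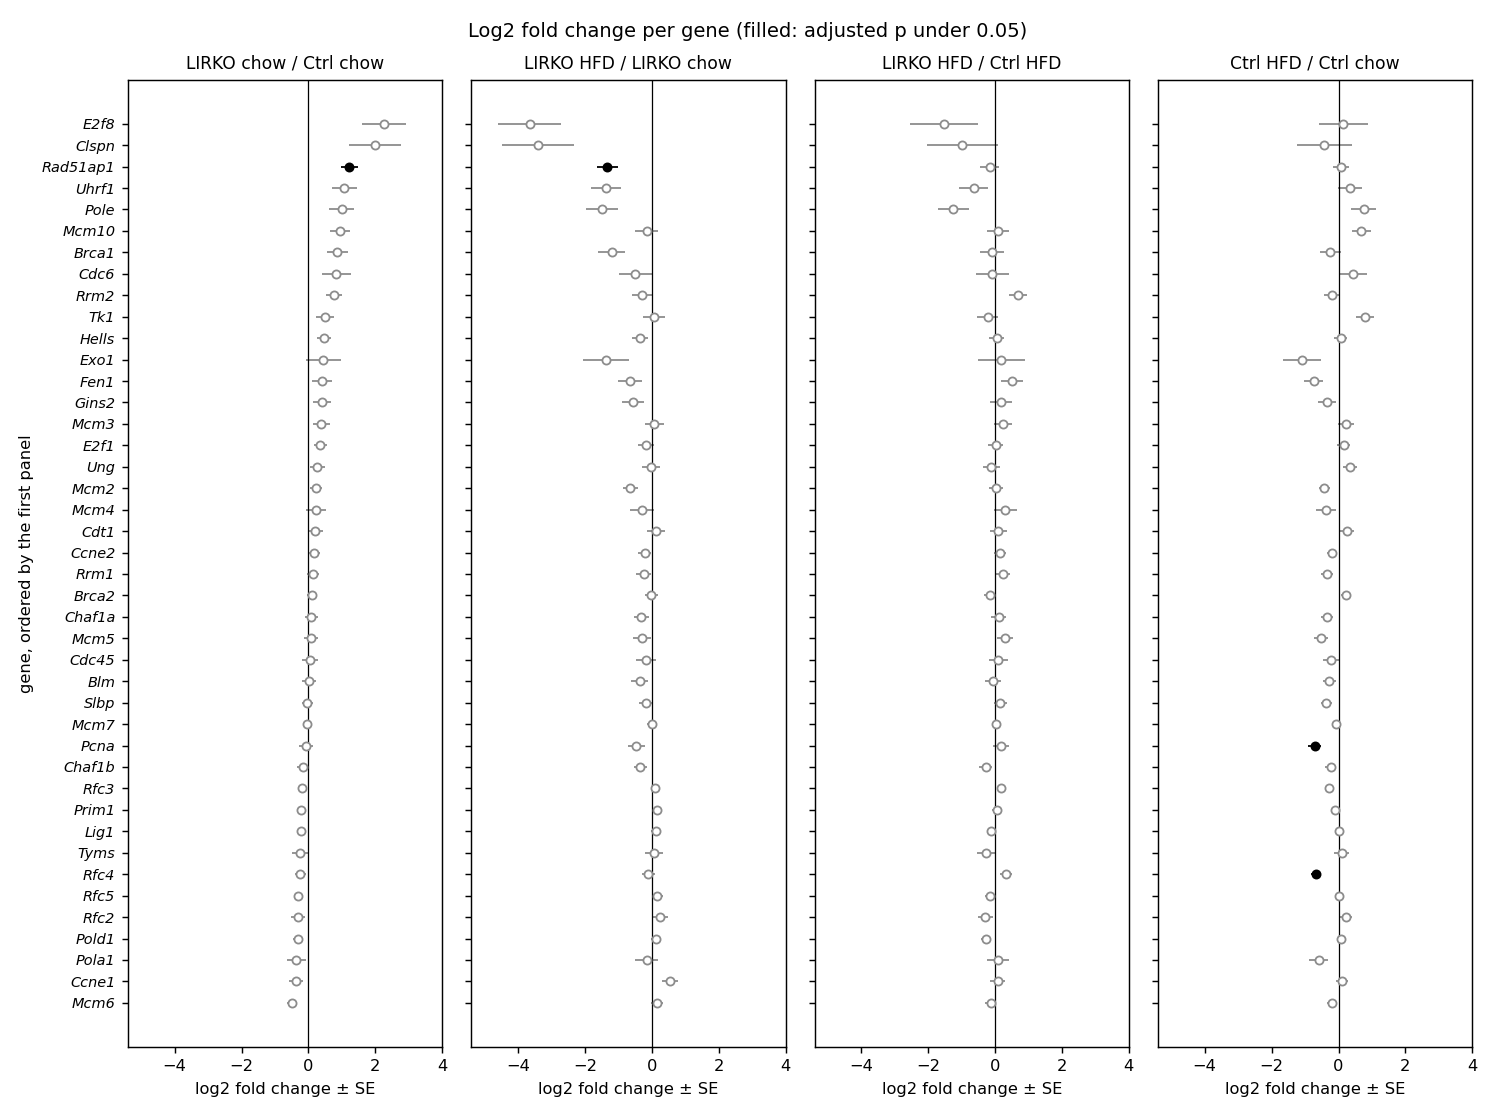
Log2 difference of each of the 42 members in the 4 pairwise comparisons, with bars of 1 SE and genes ordered by their difference in LIRKO chow against Ctrl chow; filled points passed at an adjusted p under 0.05. Rad51ap1 is filled on the high side in LIRKO chow against Ctrl chow and on the low side in LIRKO HFD against LIRKO chow, and Pcna and Rfc4 are filled on the low side in Ctrl HFD against Ctrl chow.

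The second comparison sets LIRKO mice on HFD against LIRKO mice on chow. It shares the LIRKO chow libraries with the first, so that a high or low value in these libraries enters both. Rad51ap1 fell 2.51-fold and was the only member to pass, and E2f8, Clspn, Pole, Brca1 and Uhrf1 had lower values in LIRKO HFD. The more abundant Mcm7, Prim1, Rrm1 and Lig1, the ligase that seals Okazaki fragments, had log2 differences between -0.25 and 0.16.

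Rad51ap1 held 0.697, 0.654 and 0.576 CPM in LIRKO HFD, against the 1.84, 1.40, 1.58 and 1.65 CPM of LIRKO chow. The LIRKO HFD libraries were all below the LIRKO chow libraries and within the range of both Ctrl groups. The log2 fold change was -1.33 (SE 0.31, edgeR adjusted p = 0.0306). This call rests on every library of both groups: without LIRKO HFD library 1, 2 or 3 the adjusted p was 0.0985, 0.141 or 0.126, and without LIRKO chow library 1, 2, 3 or 4 it was 0.0967, 0.0796, 0.0514 or 0.0572.

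E2f8 had 2, 0 and 2 reads in LIRKO HFD, against 19, 27, 18 and 14 reads in LIRKO chow. The log2 difference was -3.65 (SE 0.95, edgeR adjusted p = 0.0538), and its size rests on those few reads. As E2f8 passed the low-count filter only through LIRKO chow, its direction here was set by that filter. Clspn had 7, 1 and 4 reads in LIRKO HFD, against 45, 54, 50 and 39 reads in LIRKO chow. In both genes every LIRKO HFD library was below every LIRKO chow library, and Clspn had a log2 difference of -3.39 (SE 1.08, edgeR adjusted p = 0.114).

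Pole held 0.464, 0.458 and 0.276 CPM in LIRKO HFD, against 1.03, 1.47, 0.958 and 1.04 CPM in LIRKO chow. Brca1 held 0.929, 1.05 and 1.63 CPM in LIRKO HFD, against 2.62, 3.54, 2.34 and 2.61 CPM in LIRKO chow. Uhrf1 held 0.348, 0.61 and 0.501 CPM in LIRKO HFD, against 1.27, 1.67, 1.02 and 1.13 CPM in LIRKO chow. None of these 3 genes overlapped between the groups, and their log2 differences of -1.49, -1.20 and -1.37 missed the threshold, with edgeR adjusted p-values of 0.12, 0.126 and 0.131. E2f8, Clspn, Pole, Brca1 and Uhrf1 passed in 7, 4, 3, 2 and 2 of 24 alternative settings, and all 5 did so with DESeq2 (adjusted p = 0.00894 to 0.0461) and with these groups alone in the fit (edgeR adjusted p = 0.00558 to 0.0193). In that last fit Clspn, like E2f8, reached the filter's CPM in 0 LIRKO HFD and 4 LIRKO chow libraries. Clspn was tested there only through LIRKO chow, so its direction in that fit was set by the filter.

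Mcm2 and Pcna, both abundant and added after their values were seen, also lay apart. All LIRKO HFD libraries lay below all LIRKO chow libraries for 18.3% of all genes tested. Mcm2 held 14.2, 13.4 and 15.9 CPM in LIRKO HFD, against 22.5, 23.3, 22.0 and 22.5 CPM in LIRKO chow. Pcna, the sliding clamp, held 36.3, 27.7 and 34.2 CPM in LIRKO HFD, against 45.3, 48.3, 44.7 and 42.3 CPM in LIRKO chow. Both were lower in all LIRKO HFD libraries, with log2 differences of -0.64 (SE 0.22) for Mcm2 and -0.46 (SE 0.25) for Pcna and edgeR adjusted p-values of 0.144 and 0.359.

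Over the list, 0 of 42 members passed higher and 1 passed lower, beside 1.06% higher and 0.975% lower among all genes. All LIRKO HFD libraries were below all LIRKO chow libraries for 9 members, beside 18.3% of all genes, and above for 2 (Rfc2 and Ccne1), beside 16.1%. E2f8 is among the 9, and it passed the low-count filter only in LIRKO chow. The members' median log2 difference was -0.20, beside 0.03 over all genes, and 30 of 42 were negative. All 7 repair and checkpoint genes and all 5 chromatin assembly genes had negative values, with medians of -1.20 and -0.34. Endothelial and macrophage markers were higher in every LIRKO HFD library than in any LIRKO chow library (sums given above), with 1 of 10 and 3 of 10 markers called higher. The 7 stellate and fibroblast markers likewise summed to 32.4 to 40.5 CPM in LIRKO HFD and 1.32 to 23.5 CPM in LIRKO chow, and 1 of 8 beta cell markers was called lower. Their part in these values was not tested. With the LIRKO chow libraries summed in pairs 0 members passed, beside 7 of 19772 genes. With these 2 groups alone in the fit 8 members passed lower, beside 1925 of 18143 genes. The 8 include E2f8 and Clspn, which passed the filter of that fit only through LIRKO chow.

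The third comparison, LIRKO against Ctrl on HFD, asks what the genotype does when both are on the diet. Of the 42 members 0 passed with edgeR, beside 0.508% of all genes (0.316% higher and 0.192% lower), and 0 passed with DESeq2. In the edgeR fit 2 members had an unadjusted p under 0.05, against 1507 of the 19284 genes. Rrm2 held 5.08, 2.44 and 2.71 CPM in LIRKO HFD, against 1.39, 1.72, 1.78, 2.99 and 2.61 CPM in Ctrl HFD. Its groups overlapped, with LIRKO HFD library 1 above the rest, and the log2 difference was 0.69 (SE 0.27, edgeR adjusted p = 0.482).

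Pole held 0.464, 0.458 and 0.276 CPM in LIRKO HFD, against 1.89, 0.698, 0.503, 1.29 and 0.449 CPM in Ctrl HFD. The groups overlapped only through Ctrl HFD library 5, and the log2 difference was -1.25 (SE 0.47, edgeR adjusted p = 0.423). Rfc4, a clamp loader subunit, held 6.50, 5.56 and 5.44 CPM in LIRKO HFD, against 3.23, 4.93, 5.00, 5.23 and 4.91 CPM in Ctrl HFD. It was the only member with all LIRKO HFD libraries above all Ctrl HFD libraries, beside 2.51% of all genes, and 0 members had all below, beside 2.5%. Its log2 difference was 0.32 (SE 0.18, edgeR adjusted p = 0.717).

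Pold1, the catalytic subunit of polymerase delta, held 11.3, 13.3 and 13.5 CPM in LIRKO HFD, against 15.6, 14.5, 15.9, 18.1 and 12.8 CPM in Ctrl HFD, and E2f8 had 2, 0 and 2 reads in LIRKO HFD, against 0, 0, 7, 8 and 1 reads in Ctrl HFD. Both overlapped, with log2 differences of -0.28 (SE 0.14) and -1.53 (SE 1.01) and edgeR adjusted p-values of 0.681 and 0.752. Over the list the median log2 difference was 0.03, beside -0.04 over all genes, with 24 members positive and 18 negative. Rad51ap1, which led on chow, stood at 0.642 ± 0.061 CPM (SD, n = 3) in LIRKO HFD and 0.713 ± 0.274 CPM (n = 5) in Ctrl HFD, a log2 difference of -0.17 (SE 0.29).

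Whether the genotype's effect differed between the diets was tested as an interaction, the LIRKO minus Ctrl difference on HFD less the one on chow. Of the 42 members 0 passed with edgeR and 0 with DESeq2, beside 1 gene of 19284 with edgeR (0.00519%), and 7 members had an unadjusted edgeR p under 0.05, against 1065 of the 19284 genes. The smallest p-values belonged to Pole (log2 -2.24, SE 0.60) and Rad51ap1 (log2 -1.39, SE 0.39), both with an edgeR adjusted p of 0.449. E2f8 (log2 -3.80, SE 1.21), Uhrf1 (log2 -1.72, SE 0.57) and Rfc4 (log2 0.57, SE 0.24) followed, with edgeR adjusted p-values of 0.632, 0.685 and 0.867. E2f8 was tested only through its LIRKO chow libraries, which enter this difference. The difference of Rad51ap1 on chow and its absence among the calls on HFD are therefore not shown to differ between the diets.

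The fourth comparison sets HFD against chow in Ctrl mice. Pcna and Rfc4, the clamp and a subunit of its loader, fell in Ctrl HFD, and Mcm2, Mcm5 and Fen1, the flap endonuclease of the lagging strand, had lower values that did not pass. Tk1, the thymidine kinase of the salvage pathway, had higher values that did not pass. Part of the lower values sat in Ctrl HFD libraries 1 and 2, which stood apart as described above.

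Pcna held 18.5, 19.2, 38.7, 36.8 and 32.7 CPM in Ctrl HFD libraries 1 to 5, against 31.2, 47.0 and 63.3 CPM as the lowest, median and highest in Ctrl chow. The groups overlapped, and Ctrl HFD libraries 1 and 2 were lower than all other libraries. The log2 fold change was -0.71 (SE 0.20, edgeR adjusted p = 0.0403), and it was -0.36 (edgeR adjusted p = 0.226) without these 2 libraries. The call was also lost without Ctrl HFD library 1 or 2 alone (adjusted p = 0.115 and 0.0957), without Ctrl chow library 1, 2 or 6 (0.0913, 0.0703 and 0.0888), without LIRKO chow library 1 or 3 (0.0509 and 0.0517) and without LIRKO HFD library 3 (0.0533).

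Rfc4 held 3.23, 4.93, 5.00, 5.23 and 4.91 CPM in Ctrl HFD, against 6.29, 7.03 and 9.13 CPM in Ctrl chow. All Ctrl HFD libraries were below all Ctrl chow libraries, with library 1 lowest. The log2 fold change was -0.67 (SE 0.15, edgeR adjusted p = 0.0306), and it was -0.51 (edgeR adjusted p = 0.147) without Ctrl HFD libraries 1 and 2. The call was lost without Ctrl HFD library 1 or 2 alone (adjusted p = 0.0823 and 0.0668) and without Ctrl chow library 1, 2 or 6 (0.0707, 0.063 and 0.0733). Its exons share 12.7% of their length with Eif4a2 on the opposite strand, and the strand setting of the counting is not stated in the sources used here.

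Tk1 held 6.40, 4.80, 3.67, 4.28 and 3.88 CPM in Ctrl HFD, against 1.5, 2.48 and 3.79 CPM in Ctrl chow. The groups overlapped by a narrow margin, and the log2 difference was 0.80 (SE 0.27, edgeR adjusted p = 0.0592). Tk1 passed in 3 of 24 settings: with DESeq2 (adjusted p = 0.0265) and without Ctrl chow library 4 or Ctrl HFD library 3 (edgeR adjusted p = 0.0349 and 0.0419). Without both Ctrl HFD libraries 1 and 2 its log2 difference was 0.62 (edgeR adjusted p = 0.25). Rfc3 held 8.14, 8.01, 9.65, 9.04 and 9.90 CPM in Ctrl HFD, against 9.34, 11.2 and 11.7 CPM in Ctrl chow (log2 -0.29, SE 0.10, edgeR adjusted p = 0.0689). Fen1 held 0.596, 0.559, 1.81, 1.67 and 1.66 CPM in Ctrl HFD, against 1.56, 2.20 and 2.63 CPM in Ctrl chow (log2 -0.75, SE 0.29, edgeR adjusted p = 0.0862). Rfc3 and Fen1 passed with DESeq2 (adjusted p = 0.0243 and 0.0425), and Fen1 also without Ctrl HFD library 3 (edgeR adjusted p = 0.0478). Without both Ctrl HFD libraries 1 and 2 their log2 differences were -0.16 and -0.28 (edgeR adjusted p = 0.4 and 0.449). In Rfc3 and Fen1 the low end of Ctrl HFD was libraries 1 and 2. The other 3 lay within the Ctrl chow range for Fen1. For Rfc3 these 3 lay below every Ctrl chow library other than library 5, which held 9.34 CPM.

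Over the list, 0 of 42 members passed higher and 2 passed lower, beside 5.57% higher and 4.35% lower among all genes, or 9.93% in all. Only Rfc4 had all Ctrl HFD libraries below all Ctrl chow libraries, beside 2.13% of all genes, and 0 members had all above, beside 1.43%. The median was -0.14, beside 0.04 over all genes. Both Ctrl HFD libraries 1 and 2 lay below all 16 other libraries for 14 of the 42 members (33.3%), against 17.6% of all genes, and above them for 2 (4.76%), against 18.7%. The 14 included Mcm2, Mcm4, Mcm5, Cdc45, Pola1, Pcna, Rrm1, Rrm2, Slbp and Blm. Without the pair, 0 members passed, and 34 genes passed in all in place of 1914. The endothelial sums were 329 and 349 CPM in this pair and 172 to 254 CPM in the other 3. Against Ctrl chow, 4 of 10 endothelial markers were called higher in Ctrl HFD and 2 of 8 beta cell markers lower, and their part in these values was not tested.

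The member of each role with the highest mean CPM over all 18 libraries was followed across the 4 groups. Rfc2 came before Pcna by this measure (42.2 and 39.5 CPM) but after it in Ctrl chow (42.6 and 47.7 CPM). Rfc2 held 42.3, 41.7 and 36.8 CPM in LIRKO HFD, 36.0, 36.3, 34.1 and 30.3 in LIRKO chow, 67.9, 71.9, 33.8, 33.3 and 39.6 in Ctrl HFD, and 35.1, 42.8 and 52.9 as the lowest, median and highest in Ctrl chow. E2f1, an activating E2F, averaged 22.2 ± 6.83 CPM (SD, n = 3) in LIRKO HFD, 25.1 ± 3.64 (n = 4) in LIRKO chow, 21.9 ± 6.21 (n = 5) in Ctrl HFD and 19.7 ± 3.41 (n = 6) in Ctrl chow. Brca2, a tumour suppressor of homologous recombination, averaged 6.4 ± 0.307, 6.45 ± 0.6, 7.09 ± 1.15 and 6.02 ± 1.07 CPM in the same order of groups. Slbp averaged 17.7 ± 2.07, 19.9 ± 0.781, 15.8 ± 4.38 and 20.4 ± 3.05 CPM in that order. None of Rfc2, Rrm1, E2f1, Brca2, Slbp and Mcm7 passed in any of the 5 comparisons, and for Rfc2 the 2 high values were those of Ctrl HFD libraries 1 and 2. Cyclin E, the partner of Cdk2 at the start of S phase, comes from Ccne1 and Ccne2. Ccne1 stood at 3.88 ± 1.17, 2.65 ± 0.428, 3.68 ± 0.831 and 3.42 ± 0.394 CPM and Ccne2 at 7.21 ± 1.11, 8.38 ± 0.527, 6.52 ± 0.752 and 7.4 ± 1.39 CPM in the same order, and neither passed in any comparison.

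Some members share exonic bases with a gene on the opposite strand, so their counts are uncertain while the strand setting is unknown. The shared part of the member's exons was 78.8% for Fen1 (with Gm10143), 67.3% for Gins2 (with Gse1), 52.5% for Chaf1a (with Ubxn6), 17.4% for Ccne2 (with Ints8), 15.1% for Rfc2 (with Lat2) and 11.2% for E2f8 (with Gm2788). Rad51ap1, Clspn, Uhrf1, Brca1, Rrm2, Mcm6, Mcm10 and Pcna shared none.

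Other genes of replication and the cycle were read from 3 further lists. Of 53 other replication genes 52 were tested, and in LIRKO chow against Ctrl chow their median log2 difference was 0.05. Among those reported here 1 passed, on the low side: Pole3, a small subunit of polymerase epsilon (log2 -0.60, SE 0.16, edgeR adjusted p = 0.0333). In LIRKO HFD against LIRKO chow 1 of the 52 passed lower, Dtl, an adaptor that marks Cdt1 for destruction (log2 -2.89, SE 0.70, edgeR adjusted p = 0.038). In Ctrl HFD against Ctrl chow 2 passed lower, the origin recognition subunit Orc2 (log2 -0.52, edgeR adjusted p = 0.0362) and Pole3 (log2 -0.49, edgeR adjusted p = 0.0467), and 0 passed in LIRKO HFD against Ctrl HFD. Among all genes tested, 2.2% passed lower on chow, 0.975% in LIRKO HFD against LIRKO chow and 4.35% in Ctrl HFD against Ctrl chow. The calls of Pole3 on chow, Dtl, Orc2 and Pole3 in Ctrl HFD were lost in 8, 7, 9 and 17 of 24 settings.

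More genes passed in the list of G2 and mitosis. Of 29 tested, 12 passed higher in LIRKO chow against Ctrl chow, beside 2.95% of all genes, with a median log2 difference of 1.30. For 24 all LIRKO chow libraries were above all Ctrl chow libraries, beside 6.46% of all genes. In LIRKO HFD against LIRKO chow 13 passed lower, beside 0.975% of all genes, with a median of -1.79. In LIRKO HFD against Ctrl HFD and in Ctrl HFD against Ctrl chow 0 passed by edgeR, with medians of -0.27 and 0.07, and 2 and 3 had an unadjusted p under 0.05, against 1507 and 6592 of the 19284 genes. Top2a, the topoisomerase that untangles sister chromatids, held 13.3, 12.9, 12.2 and 12.7 CPM in LIRKO chow, against 1.67, 3.13 and 7.31 CPM in Ctrl chow (log2 1.73, SE 0.47, edgeR adjusted p = 0.0376), and 0.842, 1.31 and 1.45 CPM in LIRKO HFD. Cdk1, the kinase of mitotic entry, and Mki67, the proliferation antigen, had log2 fold changes of 1.73 and 2.03 on chow (edgeR adjusted p = 0.0186 and 0.00183) and of -2.67 and -2.43 in LIRKO HFD against LIRKO chow (0.019 and 0.0127). On chow Top2a lost its call without Ctrl chow library 1, 3, 4 or 6, without any 1 of the LIRKO chow libraries and without LIRKO HFD library 2 (edgeR adjusted p = 0.0501 to 0.0899), and Cdk1 without LIRKO chow library 2 (0.0579). In LIRKO HFD against LIRKO chow all 3 genes lost it without any 1 LIRKO HFD library (0.0511 to 0.104), and Cdk1 also without LIRKO chow library 1 or 2 (0.0554 and 0.0691). With the LIRKO chow libraries summed in pairs, 1 of the 29 passed on chow and 0 in LIRKO HFD against LIRKO chow, and no test set the 2 lists against each other. Leaving out 1 library moved the count on chow to between 4 and 19 (lowest without LIRKO chow library 2 or 3, highest without Ctrl HFD library 4). It moved the count in LIRKO HFD against LIRKO chow to between 0 and 15, with 0 without LIRKO HFD library 1 or 3, 1 without LIRKO HFD library 2 and 2 without LIRKO chow library 1 or 2. Of 18 G1 cyclins, kinases and inhibitors, 1 passed in any comparison, Ccnd1 in Ctrl HFD against Ctrl chow (log2 -0.61, edgeR adjusted p = 0.0488). Its call was lost in 18 of 24 settings, and 4.35% of all genes passed lower in that comparison.

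**Figure D4:**
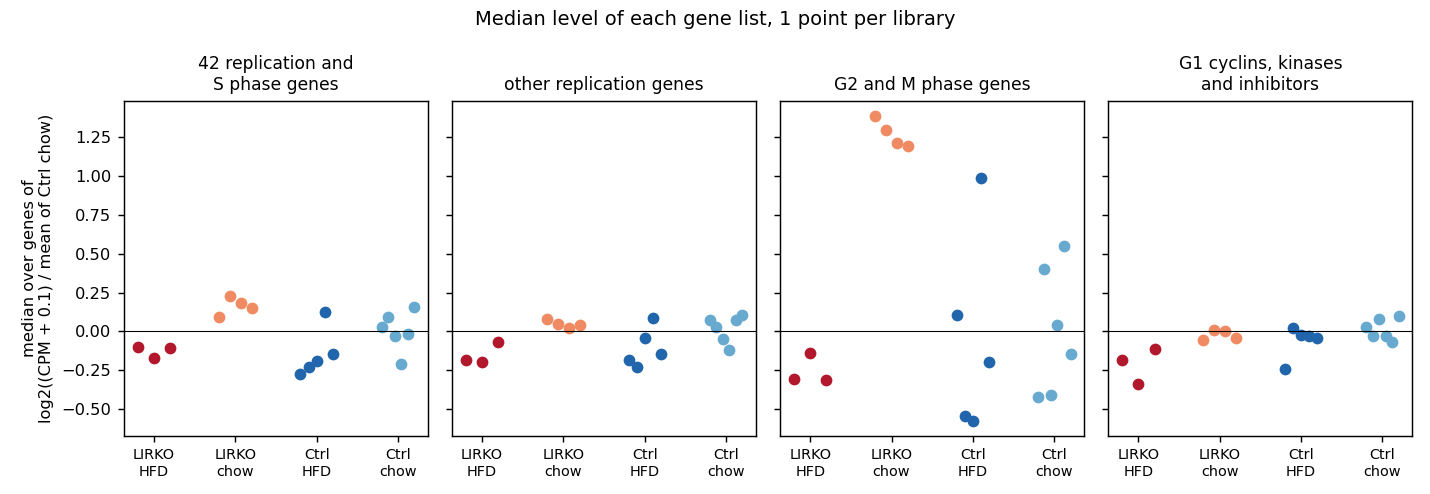
Median log2 ratio to the Ctrl chow mean (with 0.1 added to CPM) of the 42 members, of other replication genes, of G2 and M phase genes and of the G1 genes, with 1 point per library by group. The G2 and M phase genes stand at 1.19 to 1.38 in the LIRKO chow libraries and at 0.99 in Ctrl HFD library 4, while the 42 members stay between -0.28 and 0.23 in all libraries.

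Within the Ctrl HFD group library 4 held the highest values of several of these genes. It was the highest of the 5 for 17 of the 42 members, against 22.7% of all genes, and held 2.55 CPM of Brca1, 1.48 CPM of Uhrf1 and 0.819 CPM of Clspn. Its median log2 ratio over the G2 and M phase genes was 0.99, against -0.57 to 0.10 in the other 4 Ctrl HFD libraries. No label sets this library apart.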

How the data were processed

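The deposited table holds counts, whole numbers of reads per Ensembl gene and library that the authors did not normalise. STAR, featureCounts and GRCm38 are named, per the submitters' processing notes; versions, annotation and strand setting are not stated in the sources used here. Per the labels' protocols, directional libraries were made from total RNA. Gene symbols and coordinates came from the GENCODE M21 annotation of GRCm38, which named 52489 of 53090 IDs; the other 601 held at most 0.0176% of any library's counts. Groups came from the labels, and replicate numbers follow the order of the samples.

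The model was edgeR 4.0.16 under R 4.3.3: filterByExpr on the groups (a minimum of 10 counts in a library of median size, 0.276 CPM, in at least 3 libraries), TMM scaling and the quasi-likelihood model with 1 coefficient per group over all 18 libraries (square root of the common dispersion 0.314). Tests were two-sided and adjusted by Benjamini-Hochberg over 19284 genes in each of 5 comparisons. The SE of a log2 fold change is its size over the square root of F. CPM are given with SD. Of the 42 members, 38 passed the filter's CPM in all 18 libraries and 4 (E2f8, Clspn, Exo1 and Cdc6) in fewer. The test was also run on simulated counts of independent libraries, without near-identical pairs or libraries that stand apart. The outcome of that run is not reported here.

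Alternatives were RLE scaling, no filter, DESeq2 1.42.0, each library left out, near-identical LIRKO chow libraries summed in pairs, Ctrl HFD libraries 1 and 2 left out, and the compared groups alone. Members and lists were chosen with earlier results of these data known. Values by library are given for members that passed, or those with the 5 smallest p-values, and for the member of each role with the highest mean CPM. Members whose chow groups did not overlap, Mcm2 and Pcna in LIRKO HFD, and cyclin E were added after their values were seen. The result of 1 gene among the other replication genes is not reported here.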

Additional observations from a re-analysis of the deposited data

Results flagged for a closer look

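A library was singled out here where its gap to the nearest other library of its group was large against the group's range (Dixon's test at the 95% level), which chance does in about 1 in 20 groups. LIRKO HFD, with 3 libraries, was too small a group to be screened. Over 78 groups of 26 genes, 10 values were singled out. Of these, 7 were high values of Ctrl HFD library 4: Brca1 at 2.55 CPM, against 0.745 to 1.14 CPM in the other 4 libraries, Clspn at 0.819 CPM (others 0 to 0.118), Mki67 at 9.79 CPM (others 2.96 to 3.77), Top2a at 9.04 CPM (others 1.44 to 2.53), Cdk1 at 1.76 CPM (others 0.296 to 0.396), Dlgap5 at 1.07 CPM (others 0.199 to 0.419) and Dtl at 0.819 CPM (others 0.0496 to 0.233). Genes of division vary together within a library, so these 7 are not independent. Pole stood high in LIRKO chow library 2, at 1.47 CPM, against 0.958 to 1.04 CPM in the other 3. Rfc4 stood low in Ctrl HFD library 1, at 3.23 CPM, against 4.91 to 5.23 CPM in the other 4. Rfc3 stood low in Ctrl chow library 5, at 9.34 CPM, against 10.8 to 11.7 CPM in the other 5.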

How the results depend on the processing

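Counts of genes called moved with the choice of test and libraries. In LIRKO chow against Ctrl chow, 993 genes and 1 member became 1638 and 6 with DESeq2, 193 and 0 with the LIRKO chow libraries summed in pairs, 1765 and 5 without both Ctrl HFD libraries 1 and 2, and 1653 and 6 with these groups alone in the fit. In LIRKO HFD against Ctrl HFD, 98 genes became 311, 54, 193 and 19 in the same order of choices, and members stayed at 0. In Ctrl HFD against Ctrl chow, 1914 genes and 2 members became 457 and 0 without the filter, 3965 and 5 with DESeq2, 114 and 0 with pairs summed, 34 and 0 without Ctrl HFD libraries 1 and 2, and 1 and 0 with these groups alone. In LIRKO HFD against LIRKO chow, 392 genes and 1 member became 250 and 0 without the filter, 1089 and 6 with DESeq2, 7 and 0 with pairs summed, 1191 and 5 without Ctrl HFD libraries 1 and 2, and 3403 and 8 with these groups alone. For the interaction, 1 gene became 47 with DESeq2, 0 with pairs summed and 8 without Ctrl HFD libraries 1 and 2, and the last also moved the members' median to -0.20 from -0.06. Pairs summed and left-out libraries mean fewer libraries; the cause of the other shifts was not tested.

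Leaving out 1 library gave 431 (without LIRKO chow library 3) to 1126 genes and 1 to 3 members in LIRKO chow against Ctrl chow. It gave 10 (without LIRKO HFD library 3) to 162 genes (without Ctrl HFD library 4) and 0 members in LIRKO HFD against Ctrl HFD, and 69 (without Ctrl chow library 6) to 3877 genes (without Ctrl chow library 4) and 0 to 5 members in Ctrl HFD against Ctrl chow. It gave 55 (without LIRKO chow library 1 or 2) to 502 genes and 0 to 3 members in LIRKO HFD against LIRKO chow, and 0 to 3 genes and 0 members for the interaction. The members' median log2 difference then ran over 0.09 to 0.19, -0.02 to 0.10, -0.18 to -0.10, -0.25 to -0.19 and -0.11 to 0.01 in these 5 comparisons.

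For 31 differences of named members, 738 values came from the alternatives: 661 kept their side of the threshold, 31 lost it, 46 gained it and 0 changed sign. Among the other named genes 5 changed sign, all in Ctrl HFD against Ctrl chow, where none had passed: Mki67 (-0.12 without Ctrl HFD library 4, 0.55 without Ctrl chow library 2, 0.61 at the highest without both Ctrl HFD libraries 1 and 2), Top2a (0.17 without both Ctrl HFD libraries 1 and 2, 0.090 without Ctrl chow library 5, -1.01 at the lowest without Ctrl HFD library 4) and Cdk1 (-0.02 without Ctrl chow library 1, -0.82 without Ctrl HFD library 4, which then passed as lower at an edgeR adjusted p of 0.0485, 0.25 without Ctrl HFD library 3 and 0.46 at the highest without both Ctrl HFD libraries 1 and 2). No paired analysis was possible because the labels give no replicate numbers or pairs. Depth limits the lowest members: E2f8 had at most 27 reads in a library.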
